A study of Saccharomyces cerevisiae with 262 samples.

Results

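The 10 genes described here, MET3, MET14, MET16, MET22, MET5, MET10, MET17, MET2, MET6 and SAM3, belong to sulfate assimilation and methionine metabolism of the budding yeast Saccharomyces cerevisiae. They were taken as the probes annotated to these symbols, 1 probe each, among 5605 named genes on the arrays. Transcript levels had been measured in haploid segregants of a cross, and in its parents RM11-1a (RM) and BY4716 (BY), on 262 arrays of 2 colours. Each strain's RNA was hybridised against a reference pool of BY4716 RNA, once in each dye, and the 2 arrays of such a dye-swap pair were averaged. Segregants had 1 pair each (226 arrays), RM had 12 pairs under 6 replicate numbers (repeats of a number averaged, n = 6), and BY had 6 pairs.

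RM11-1a is a haploid strain derived from a vineyard isolate. It carries mating type a, lacks LEU2 and URA3 and has a disrupted HO. BY4716 is a haploid laboratory strain of mating type alpha that lacks LYS2, so these markers differ among the segregants. Values below are log2 ratios of the strain's own RNA to the pool. A value of 0 is the level of the pool, and a value of 1 is a doubling. Neither the base nor the direction of the deposited ratio is stated: base 2 was inferred, because 3 values exceed the natural log of a 16-bit intensity range, and the likely direction was set by the deleted genes. LEU2 averaged −5.93 in RM and 0.035 in BY, and URA3 averaged −4.87 in RM and 0.15 in BY. HO averaged −3.53 in RM and −0.0035 in BY. LYS2 averaged 4.35 in RM and had no value on both arrays of any BY pair.

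Yeast takes up sulfate, activates it to adenylyl sulfate and then to 3′-phosphoadenylyl sulfate, reduces that to sulfite and sulfide, and joins sulfide to a carbon skeleton made from homoserine to give homocysteine. Methylation of homocysteine yields methionine, which is the source of S-adenosylmethionine. Transcription of most of these steps depends on the activator Met4, which binds DNA through its partners Cbf1, Met28, Met31 and Met32 and is held in check by Met30, a subunit of a ubiquitin ligase.

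Arrays differed in how many of the 7085 probes they measured: from 3769 to 6581 on segregant arrays, from 4748 to 6571 on RM arrays and from 3597 to 6329 on BY arrays. All 10 genes had values on both arrays of a pair in all 6 RM replicates. In BY, MET14 was measured in 2 replicates, MET2 in 1, MET3 and MET10 in 3 each, MET5 in 4, MET22 in 5, and MET16, MET17, MET6 and SAM3 in 6. MET22, MET17 and SAM3 had a value in every segregant, and MET5 had the fewest values, 77, with 36 missing. BY replicates 1 and 2 stood apart from the rest of their group: their mean correlation with BY replicates 3 to 6 over tested probes was −0.39. Replicates 1 and 2 correlated with each other at 0.79, and the mean within replicates 3 to 6 was 0.88. Results that use BY are given without these replicates where that changes them.

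**Figure D1:**
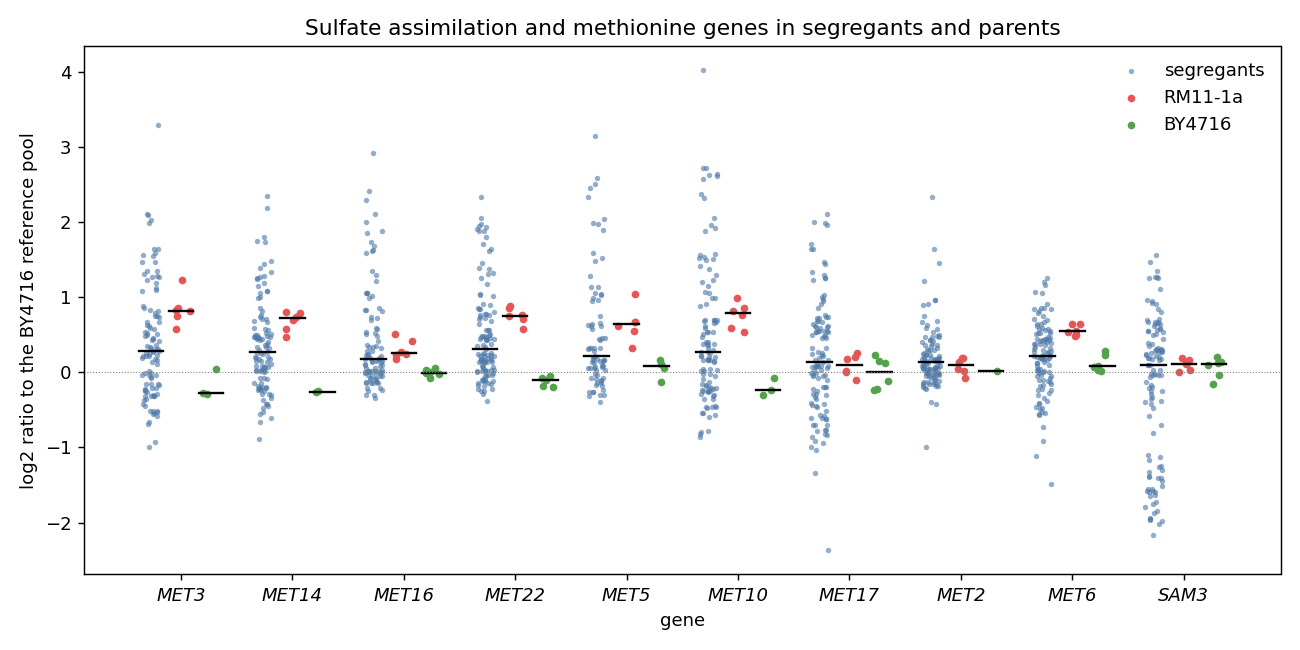
Log2 ratio to the BY4716 reference pool (vertical axis) for each gene (horizontal axis) in segregants, RM11-1a and BY4716; each point is 1 strain or replicate and the black bar is the group median. In every gene the lowest segregant lies below and the highest above all parental replicates, from −2.37 to 2.11 for MET17 and from −2.17 to 1.57 for SAM3, while the parental replicates of those 2 genes lie between −0.24 and 0.26.

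The parents were compared to ask which steps of the pathway differ between the strains that made the cross. Of the 10 genes, 5 had enough values for the main limma fit (no more than 1 replicate missing per parent, and 80% of segregants measured). MET22, MET6 and MET16 rose in RM, 0 fell, and MET17 and SAM3 did not pass an adjusted p of 0.05. In that fit 34.8% of the 2639 tested probes were called higher in RM, so a call between these strains was common. The median RM minus BY difference was 0.31 over the 5 genes and 0.031 over all tested probes. With at least 3 values in each parent and a value in 50% of segregants, 8 of the 10 could be fitted, and MET3, MET10 and MET5 were also called higher in RM. In that wider fit 53.9% of 4374 probes were called in either direction and 32.1% were called higher.

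MET3 encodes ATP sulfurylase, which activates sulfate in the first step. Its level in RM was 0.58 at the lowest, 0.82 at the median and 1.23 at the highest. The 3 BY replicates measured had −0.28, −0.29 and 0.052, all below every RM replicate. The difference of 1.02 (SE 0.13) passed in the wider fit (limma, adjusted p = 8.54e-05). Both of the low BY values came from BY replicates 1 and 2. When a value on either array was enough and these replicates were left out, the difference was 0.65 (SE 0.12, limma, adjusted p = 0.000521), and 63.3% of 5157 probes were called in either direction in that fit.

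MET14 encodes adenylyl-sulfate kinase, the second activation step. RM levels were 0.47 at the lowest, 0.72 at the median and 0.81 at the highest. Both arrays gave a value only in BY replicates 1 and 2, −0.25 and −0.26, so MET14 was not tested. Single arrays read 0.15 in BY replicate 3 and 0.22 in BY replicate 6, above those 2 values. Every RM replicate lay above all 4 BY readings.

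MET16 encodes phosphoadenylyl-sulfate reductase, which makes sulfite. In RM it had 0.17 at the lowest, 0.26 at the median and 0.51 at the highest, and in BY −0.080, −0.0013 and 0.063 at the same points. The groups did not overlap, and the difference of 0.31 (SE 0.055) passed (limma, adjusted p = 0.000322). Before repeats were averaged, however, the third pair of RM replicate 4 had −0.091, below every BY replicate. For this and the other genes, the share of all probes without such overlap was not computed. MET22 encodes the phosphatase that removes the 3′-phosphoadenylate left by the MET16 reaction. It ran from 0.58 through a median of 0.76 to 0.89 in RM, against −0.19, −0.096 and −0.052 in BY. Again no replicate overlapped. Of the 5 genes in the main fit it had the largest difference, 0.88 (SE 0.055, limma, adjusted p = 5.25e-08).

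MET10 and MET5 encode the alpha and beta subunits of sulfite reductase. MET10 in RM ran from 0.53 through a median of 0.80 to 0.99, and the 3 BY values were −0.30, −0.23 and −0.069. The first 2 came from BY replicates 1 and 2. Single arrays of MET10 read −0.50, −0.058 and 0.21 in BY replicates 3, 4 and 5, also below every RM replicate. MET5 in RM ran from 0.33 through a median of 0.65 to 1.05, and the 4 BY values were 0.057, −0.13, 0.16 and 0.11. For both subunits all RM replicates lay above all BY replicates measured. The wider fit gave 0.96 (SE 0.10) for MET10 and 0.60 (SE 0.11) for MET5 (limma, adjusted p = 2.06e-05 and 0.00107). Taking a value on either array gave all 6 BY replicates for both genes, with differences of 0.92 and 0.63. In that fit MET3, MET16, MET22, MET5, MET10 and MET6 were called higher, as were 30.2% of 5067 probes.

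MET17 encodes O-acetylhomoserine sulfhydrylase, which joins sulfide to O-acetylhomoserine. Its RM levels were −0.11 at the lowest, 0.096 at the median and 0.26 at the highest, and its BY levels were −0.24, 0.0072 and 0.23. The groups overlapped almost fully, and the difference of 0.10 (SE 0.092) did not pass (limma, adjusted p = 0.369). Without BY replicates 1 and 2 it was −0.0042. MET2 encodes homoserine O-acetyltransferase, which makes the acceptor that MET17 uses. RM values ran from −0.068 through a median of 0.093 to 0.20, and the single BY replicate with both arrays had 0.014, within the RM range. Single arrays of other BY replicates read 0.62, −0.030 and −0.16, the first above and the last below every RM replicate. MET2 was not tested.

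MET6 encodes the cobalamin-independent methionine synthase. It had 0.48 at the lowest, 0.55 at the median and 0.65 at the highest in RM, against 0.021, 0.084 and 0.28 in BY, with no overlap. The difference was 0.44 (SE 0.053, limma, adjusted p = 1.13e-05), but the call was lost after quantile normalization between pairs (0.28, adjusted p = 0.0611). SAM3 encodes the high-affinity S-adenosylmethionine permease. RM had 0.0084, 0.12 and 0.19 and BY had −0.15, 0.11 and 0.20 at the lowest, the median and the highest, so the groups overlapped fully. The difference was 0.043 (SE 0.059, limma, adjusted p = 0.569). Without BY replicates 1 and 2, MET22, MET6 and MET16 were still called higher, at 0.91, 0.41 and 0.32, and 36.8% of the 2639 probes were called higher. When all segregants entered the fit with the parents, which widens the spread, none of the 3 calls was kept (adjusted p = 0.0805 for MET22, 0.262 for MET6 and 0.662 for MET16). The labels do not say whether replicates were separate cultures, so p-values cover the spread among these RNA samples, which may be technical. In RNA of whole cell populations fewer cells and less RNA per cell cannot be told apart.

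Around these genes, 40 other genes of sulfur metabolism were listed, of which 22 could be tested in the main fit. Of these, 9 were higher in RM, 5 were lower and 8 were not called, with a median difference of 0.025. These are 40.9% and 22.7% of the 22, near the 34.8% and 21.2% of all tested probes called higher and lower. Of the 3 other genes of sulfate uptake and reduction tested, 0 rose, TRR1 fell and TRX1 and TRX2 were not called. SUL1, SUL2, MET1 and MET8 of that list had too few values to be tested. SUL2 averaged 0.39 in RM and −0.062 in 2 BY replicates, and MET8 averaged 0.099 in RM and −0.056 in 2 BY replicates. In RM MET1 averaged 0.69 and SUL1 −0.52, and neither had a value on both arrays of any BY pair. The methyl cycle, which carries methyl groups from folate to methionine and onward, held the largest of these differences, and 4 of 6 tested genes rose and 0 fell. MET13, a methylenetetrahydrofolate reductase that supplies the methyl group used by MET6, had 1.51, 1.61 and 1.67 at the lowest, median and highest of RM, against −0.48, −0.32 and 0.085 in BY. Its difference was 1.82 (SE 0.089, limma, adjusted p = 1.75e-09). SAM4, an S-adenosylmethionine-homocysteine methyltransferase, differed by 0.86 and SAM2, an S-adenosylmethionine synthetase, by 0.83. All 3 genes that lead from aspartate to homoserine rose: HOM2 by 0.52, HOM3 by 0.47 and HOM6 by 0.095. MUP1, a high-affinity methionine permease, differed by 0.59 and was the only one of 6 listed transport genes tested. CYS4, which starts cysteine synthesis from homocysteine, was lower in RM (−0.40), as were TRR1, a thioredoxin reductase (−0.27), and BDS1, a sulfatase (−0.88). Neither of the 2 glutathione synthesis genes was called.

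Among the regulators 3 of 6 could be tested. CBF1 was lower in RM by −0.65 (SE 0.053, limma, adjusted p = 5.70e-07), with RM between −0.79 and −0.51 and BY between −0.035 and 0.088. MET31 was lower by −0.25 and MET28 was higher by 0.19, and for each the parental ranges overlapped only through BY replicates 1 and 2. For MET28 these had 0.14 and 0.086, against an RM lowest of 0.050, and BY replicates 3 to 6 lay between −0.085 and −0.065. For MET31 only BY replicate 1, at −0.13, lay below the RM highest of −0.11. MET4, MET30 and MET32 were not tested. MET4 averaged 0.40 in RM and 0.050 in the 2 BY replicates measured, which were BY replicates 1 and 2. Single arrays of MET4 read −0.47 in BY replicate 3 and 0.24 in BY replicate 5. MET30 averaged 0.37 in RM and −0.16 in 2 BY replicates. MET32 averaged −0.010 in RM and had 0.019 in 1 BY replicate.

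**Figure D2:**
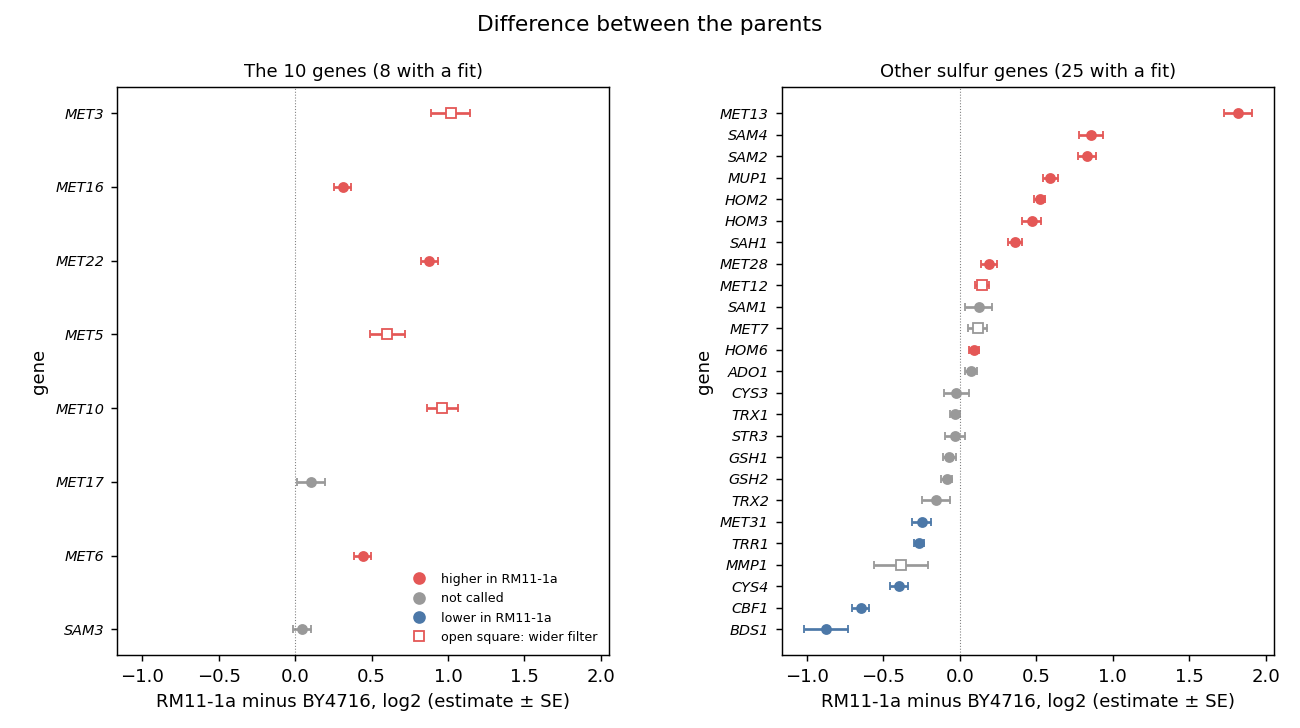
RM11-1a minus BY4716 difference in log2 ratio (horizontal axis, estimate ± SE) for 8 of the 10 genes (left) and 25 other sulfur genes (right); red is higher in RM11-1a, blue lower, grey not called, and open squares were fitted only with the wider filter. On the left 6 genes are called higher, from 0.31 for MET16 to 1.02 for MET3, and MET17 and SAM3 lie near 0; on the right the values run from −0.88 for BDS1 to 1.82 for MET13.

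The segregants were then compared with the midpoint of their parents, which asks whether the cross as a whole shifts a gene. The answer depended on how the spread was modelled. The segregant mean minus the midpoint was 0.31 for MET16, 0.19 for MET22, 0.16 for MET17, −0.14 for MET6 and −0.30 for SAM3. With 1 variance for segregants and parents, which gives the few parental replicates the wide spread of the segregants, the SE ran from 0.14 for MET6 to 0.28 for SAM3. In that limma fit 0 of the 5 genes were called, 0 had an unadjusted p under 0.05, and 2.20% of 2639 probes were called. With a separate variance for segregants and for parents, each moderated over probes with limma, 4 of the 5 were called, as were 28.5% of the probes. This fit was chosen after seeing the data. In it MET16 was above the midpoint (SE 0.077, limma moderation, adjusted p = 0.00103), as was MET22 (SE 0.065, adjusted p = 0.0217). SAM3 was below it (SE 0.096, adjusted p = 0.0127), as was MET6 (SE 0.053, adjusted p = 0.0342), and MET17 was not called (adjusted p = 0.148). The same 4 genes were called without BY replicates 1 and 2, with 41.9% of probes called.

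Segregants differed among themselves far more than replicates of a parent did. All 5 tested genes showed this in a limma fit to absolute deviations from the group mean, with and without BY replicates 1 and 2. The adjusted p was 0.000273 for SAM3, 0.00438 for MET16, 0.0111 for MET22, 0.0126 for MET6 and 0.0127 for MET17, and 41.7% of 2639 probes were called. With the wider filter 7 of 8 were called and MET3 was not (adjusted p = 0.0864), against 26.7% of 4374 probes. The segregant SD was 0.98 for SAM3, 0.96 for MET10, 0.81 for MET5, 0.78 for MET17, 0.77 for MET3, 0.71 for MET16, 0.63 for each of MET14 and MET22, 0.48 for MET6 and 0.43 for MET2. The median SD over 5523 probes was 0.25. SAM3 had a higher SD than 98% of those probes, and MET2, the least variable of the 10, a higher SD than 86.2% of them.

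The shape of the spread differed between genes. Of the sulfate activation genes, MET3 ran from −0.99 through a median of 0.28 to 3.29, and MET14 from −0.89 through 0.27 to 2.35. Both reached farther above the pool than below it. MET16, MET22, MET5 and MET10 had a long upper tail and a shorter lower one. MET16 ran from −0.33 through 0.18 to 2.92, and MET22 from −0.38 through 0.31 to 2.33. MET5 ran from −0.40 through 0.22 to 3.15, and MET10 from −0.86 through 0.27 to 4.03, the highest value of any of the genes. MET17 ran from −2.37 through 0.13 to 2.11. Its lowest value came from 1 segregant, and the next lowest was −1.34. MET2 ran from −0.999 through 0.14 to 2.34. The lowest MET2 value came from arrays that read −1.88 and −0.11, and the next lowest segregant had −0.42. MET6 ran from −1.49 through 0.22 to 1.26. For MET22 the RM median of 0.76 stood above the median segregant but far below the highest ones, and 19 segregants (16.8%) exceeded the RM mean by more than 2 pooled parental SD while 0 fell that far under the BY mean.

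Segregants beyond both parents were counted in the same way for each gene, with no test. The limits lay 2 pooled parental SD outside the parental means, so they stood closer together where the parents were nearly equal, as in MET17 and SAM3. A share thus depends on the parental difference as well as on the spread of segregants. MET17 had 44 above and 27 below, 71 segregants (62.8%). SAM3 had 35 above and 46 below, 81 segregants (71.7%). MET16 had 33 above and 7 below, 42.6% of those measured, and MET6 13 above and 28 below, 41 in all. The median over tested probes was 18.8% of segregants. The shares of MET2 (33.7%) and MET10 (29.6%) also exceeded it. Below it were MET5 (16.9%), MET22 (16.8%), MET14 (16.0%) and MET3 (5.71%). Of these 6 only MET22 passed the filter of the probes behind that median. The parental SD of MET2 rested on 2 degrees of freedom, and the BY mean of MET14 on BY replicates 1 and 2 alone. For MET3 the parental SD was wide, 0.41, and included a first repeat of RM replicate 2 at 1.93. Without BY replicates 1 and 2 the count was 79 for MET17 and 85 for SAM3, and the median was 24.5%.

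The next question was whether the genes rise and fall together across the cross. SAM3 fell into separate clusters of segregants, described further on, and is left out of pooled correlations. The other 9 genes gave 36 pairs, and all 36 were positively correlated over the segregants measured for both (at least 70 per pair). Pearson's r ran from 0.37 for MET22 with MET6 to 0.94 for MET5 with MET10, with a median of 0.80; Spearman's rho had a median of 0.74. The permutation test with 100000 resamples, two-sided, gave an adjusted p of 1.06e-05 for r in 34 pairs; the smallest p it can give is 1e-05. In the other 2, MET22 with MET6 and MET2 with MET6, it was 9.00e-05 and 6.17e-05. An r above 0.6 was found in 32 of the 36 pairs, against 1.2% of all pairs among 5116 named genes, whose median r was 0.0013.

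Both genes of a pair were read on the same arrays. When one gene was read from the arrays with own RNA in Cy5 and the other from those with own RNA in Cy3, the median r was 0.72 and all 36 pairs still passed. Within groups of segregants that share the first number of their title, of which there were 26 with 1 to 8 segregants each, the median r was 0.78. Leaving out the 2 segregants farthest from the median of the first gene gave a median of 0.77, with the lowest at 0.32. The r between the 2 arrays of a pair over segregants was 0.97 for MET17, 0.96 for MET3 and 0.94 for MET5, and lowest for MET2 at 0.74 and MET6 at 0.78. Correlation with the number of probes measured lay between −0.15 and 0.19 by Pearson's r for all 10 genes. By Spearman's rho it lay between −0.058 for SAM3 and 0.25 for MET2. Correlation with the SD of all values in a segregant reached 0.50 for MET16 and 0.49 for MET22, and its part in the pairs above was not tested.

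Among the activation steps, MET3 and MET14 correlated at 0.92 (rho 0.92, n = 100, permutation test, adjusted p = 1.06e-05). MET17 was about equally close to them, at 0.87 and 0.85, and to MET5 and MET10, at 0.88 and 0.87. Among the reductive steps MET5 and MET10, the partner subunits of sulfite reductase, correlated at 0.94 (rho 0.88, n = 75), MET16 with MET10 at 0.94 (rho 0.88, n = 91), MET16 with MET5 at 0.93 and MET16 with MET22 at 0.92 (rho 0.81, n = 94). MET22 had an r of 0.67 with MET3 and 0.64 with MET14. MET5 had 0.90 with MET14 and 0.87 with MET3. MET6 had the lowest median r of the 9, 0.61 over its 8 pairs. Whether these values of r differ between pairs was not tested. Because MET16, MET22 and MET10 had long upper tails, r was also taken within the lower and upper component of a fit of 2 Gaussians with unequal variance. MET16 with MET22 gave 0.86 among the 33 higher segregants and 0.37 among the 61 lower ones, and MET16 with MET10 gave 0.91 in 32 and 0.53 in 59. MET10 with MET22 gave 0.81 in 31 higher and 0.46 in 77 lower segregants. Segregants were split by the first gene named in each pair, which narrows its range within a component and can by itself lower r. In all 3 pairs r was smaller in the lower component, and that difference was not tested.

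**Figure D3:**
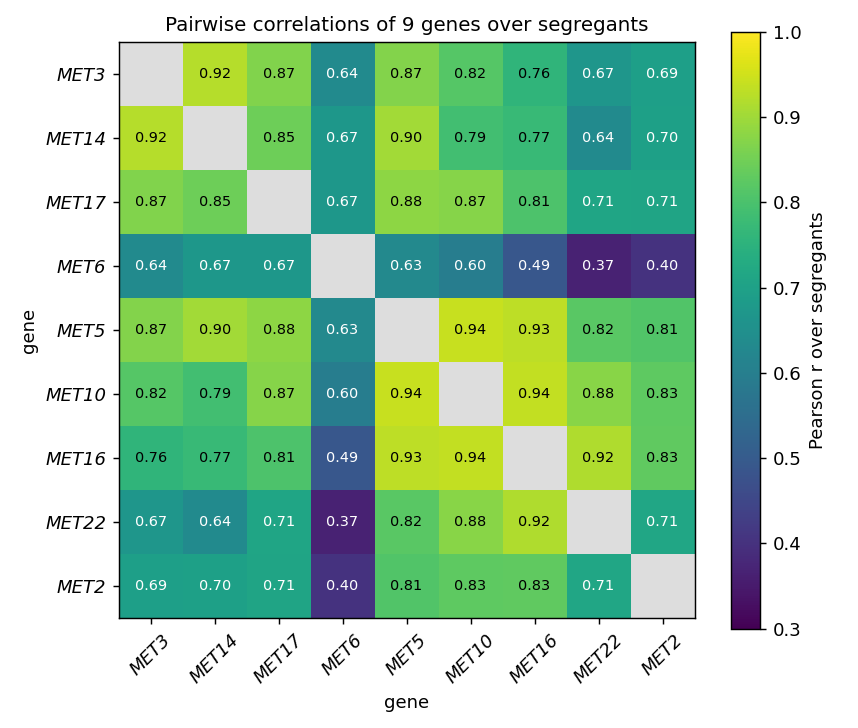
Pearson r over segregants for each pair of the 9 genes with a pooled correlation; colour and number give r, and the diagonal is left grey. All 36 values are positive, from 0.37 for MET22 with MET6 to 0.94 for MET5 with MET10, and the row of MET6 holds the lowest values.

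**Figure D4:**
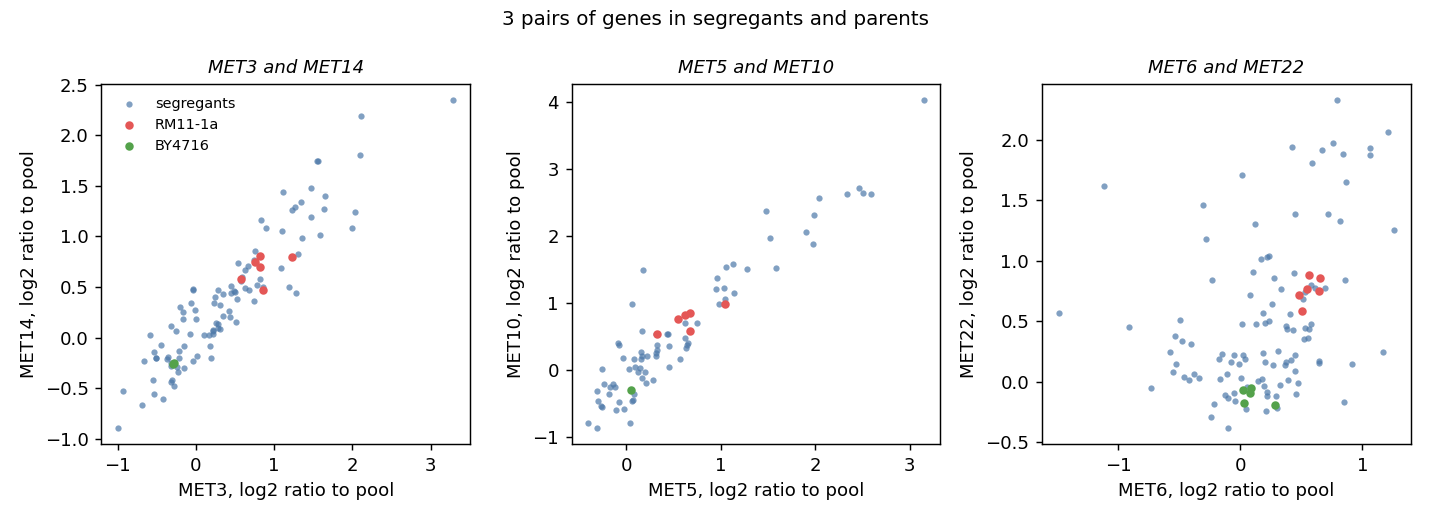
Log2 ratios of MET3 and MET14, MET5 and MET10, and MET6 and MET22, 1 point per segregant or parental replicate, for those with a value of both genes. Segregants follow a narrow band in the first pair (r = 0.92) and the middle pair (r = 0.94) and scatter widely in the last (r = 0.37); in each panel some segregants lie well above the RM11-1a replicates.

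High levels of several genes were found together in some strains. There were 39 segregants with a level above 1 in at least 1 of the 9 genes, 15 with such a level in at least 5, and 74 with none. Missing values were counted as not above 1, so the first counts are minimum counts. Of the 66 segregants with all 9 values, 23 were above 1 in at least 1 gene, 13 in at least 5 and 43 in none. The segregant titled 21-2-d was the highest of all in MET16 (2.92), MET22 (2.33), MET5 (3.15), MET10 (4.03) and MET2 (2.34). Its MET6 was 0.79 and its MET17 was 2.00. The segregant 18-6-d was the highest in MET3 (3.29) and MET14 (2.35), with MET10 at 2.73 and MET16 at 1.73. At the other end, 24-1-d had the lowest MET17 (−2.37) and the lowest MET5 (−0.40), while its MET16 was −0.0051 and its MET22 was 0.45. These strains were chosen for their extreme values and are described without a test.

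The genes closest to each of the 10 over segregants were ranked by Pearson r among other named genes with a value in at least 90 segregants, as a description with no test. MET5, with 77 values, was not among the genes ranked, although its r was 0.94 with MET10, 0.90 with MET14, 0.88 with MET17 and 0.87 with MET3. For MET3 they were MET14, MET17 and MET10 (0.82), and for MET14 they were MET3, MET17 and MET1 (0.80), the last a methyltransferase that makes siroheme, the cofactor of sulfite reductase. For MET5 they were MET10, SUL2, a sulfate permease (0.93), and MET16. For MET10 they were MET16, SUL2 (0.91) and MET1 (0.88), for MET16 they were MET10, SUL2 (0.93) and MET22, and for MET2 they were MET1 (0.88), SUL2 (0.84) and MET16 (0.83). For MET17 they were MET10, MET3 and MET14, and for MET6 they were MET17, MET14 and MET3. At this cut of 3 genes MET22 was the exception among these 9. Its genes were HOM2 (0.92), which acts between aspartate and homoserine, MET16, and ARO3 (0.91), which starts aromatic amino acid synthesis. Among the first 20 genes MET16 and MET22 were alike, each with 2 of the 10, against 4 for MET2 and up to 7 for others of the 9. HOM2 had an r of 0.88 with MET16 and 0.85 with MET10, but 0.61 with MET3 and 0.57 with MET14. The reach of each gene also differed: 176 named genes exceeded an r of 0.6 with MET16 and 173 with MET22, against 20 with MET3, 14 with MET14 and 3 with MET6. All these r share the same segregants and arrays.

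The other sulfur genes did not all follow. Of 40 listed, 8 had a median r above 0.6 with the 9 genes, and for SEO1, with values in 30 segregants, no r was computed. Of all ranked named genes, from 0.059% (with MET6) to 3.44% (with MET16) exceeded an r of 0.6 with a given gene of the 9. The share with a median r above 0.6 was not computed. SUL2 had 0.84, MET1 0.82, and MET28, the basic leucine zipper partner of Met4, 0.79. STR3, which makes homocysteine from cystathionine, had 0.73, HOM2 and STR2 0.70 each, MET13 0.64 and HOM3, aspartate kinase, 0.62. STR2 acts before STR3, making cystathionine from cysteine. In contrast 13 had a negative median r, among them SAH1 (−0.44), which hydrolyses S-adenosylhomocysteine, ADO1 (−0.40), adenosine kinase, and SAM2 (−0.38). A negative r was common among all ranked named genes, whose median r lay between −0.088 (with MET16) and −0.0029 (with MET6) for each of the 9. Of the regulators MET4 had a median r of 0.36 and MET30 0.38, while CBF1 (0.014), MET32 (0.13) and MET31 (−0.17) were near 0 or below. The transcript of CBF1, lower in RM, ranged from −1.25 through −0.30 to 0.55 among segregants. The transcript of MET4 ranged from −2.24 through 0.076 to 0.77.

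For SAM3, the segregants fell into a low and a high cluster, called by a mixture of 2 Gaussians of equal variance over 1 (BIC difference 33.5). The low cluster held 34 segregants (30.1%), from −2.17 through a median of −1.57 to −0.70. The high cluster held 79, from −0.57 through 0.30 to 1.57. Both parents lay inside the high cluster, RM between 0.0084 and 0.19 and BY between −0.15 and 0.20. Of 5523 probes with enough values, 152 (2.75%) were called this way, and SAM3 was the only one of the 10 genes. MET16 and MET22 had BIC differences of 32.2 and 31.2 but only 16.0% and 16.8% of segregants in the smaller, upper component, under the 20% required, and MET5 had too few values for this fit.

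**Figure D5:**
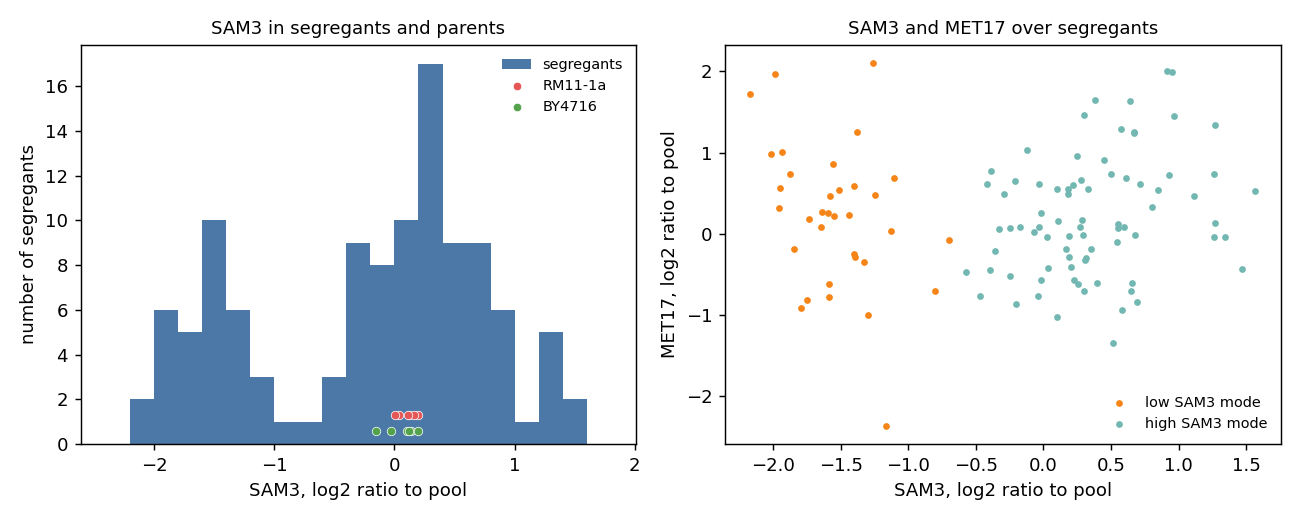
Left, number of segregants in bins of SAM3 log2 ratio, with the RM11-1a and BY4716 replicates drawn as points near the base. Right, MET17 against SAM3 log2 ratio, 1 point per segregant, coloured by SAM3 cluster. The 34 low segregants lie at or below −0.70, apart from both parents, and span the whole MET17 range.

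Within the SAM3 clusters its relation to the other genes was weak, and 18 relations were computed. In the high cluster SAM3 correlated with MET6 at 0.41 (rho 0.51, n = 74, permutation test, adjusted p = 0.00558), with MET16 at 0.36 (rho 0.35, n = 62, adjusted p = 0.0175) and with MET14 at 0.35 (rho 0.34, n = 73, adjusted p = 0.0175). All 9 values of r there were positive, and 7 passed. By rho 4 of the 9 passed, and MET3, MET5 and MET17 did not (adjusted p = 0.0563, 0.0563 and 0.0593). Without the 2 segregants farthest from the median, r was 0.44 for MET6, 0.45 for MET16 and 0.41 for MET14. In the low cluster all 9 values of r were negative. Only that with MET16 passed, at −0.44 (n = 32, adjusted p = 0.0334), and its rho of −0.30 did not (adjusted p = 0.151). The difference between the clusters was not tested. Since the 9 genes correlated with each other (median r 0.80 over all segregants), their signs are not separate observations. The share of all named genes that would pass with SAM3 in either cluster was not computed.

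The named genes most like SAM3 were outside the lists of sulfur genes. They were FEX1 and FEX2, near-identical fluoride exporter genes, and YOR389W. Over all segregants r was 0.85 for FEX1, 0.73 for FEX2 and 0.59 for YOR389W. Close behind were YPL277C (0.57), YPL278C (0.55) and SAM4 (0.53). These pooled values cross the 2 SAM3 clusters. Within the low and the high cluster r was 0.41 (n = 32) and 0.51 (n = 71) for FEX1. It was 0.53 (n = 34) and 0.54 (n = 73) for FEX2, and 0.088 (n = 30) and 0.22 (n = 63) for YOR389W. FEX1 and FEX2 were not called 2-clustered themselves (BIC differences 4.02 and −7.27), and the signals of these copies may not be separate, since a probe can bind both. In the RefSeq gene order SAM3 is gene 10 of 501 from the left end of chromosome XVI and FEX2 is gene 5, while FEX1 and YOR389W are genes 573 and 572 of 578 on chromosome XV. SAM4 is the next gene to SAM3, gene 11. SAM4 was higher in RM (mean 0.84) than in BY (mean −0.022), was not 2-clustered (BIC difference −5.52), and correlated with SAM3 at −0.20 in the low cluster (n = 34) and 0.60 in the high cluster (n = 78). The other 9 genes lie on chromosomes V, VI, X, XI, XII, XIV, XV and XVI, with MET3 and MET5 both on X.

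MET5 and MET16 had the most missing values, in 36 and 19 segregants. The median MET17 level was 0.15 where MET5 was missing and 0.089 where it was measured. For MET16 those medians were 0.082 and 0.18.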

How the data were processed

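The authors deposited 1 value table with a log ratio per probe and array, read here as log2 of reference over own RNA, and centred to a mean of 0 per array (seen in the values; the largest absolute array mean was 1.16e-08). For base, direction, scanner, background and spot filtering, nothing is stated in the labels or the table. The sign was turned to own RNA over reference, and the largest absolute value was 11.98. The labels' description calls every sample a segregant, so groups were taken from source names and titles. Gene names come from GEO's platform annotation, in which 5645 probes have 1 symbol and 1440 have none.

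Both arrays of a dye swap were averaged, with a missing value where either lacked one. RM repeats of a replicate number were averaged. Parents, midpoint and absolute deviations (first RM repeat of each number) were fitted with limma 3.58.1 (R 4.3.3; lmFit, eBayes) over all probes passing the filter, with Benjamini-Hochberg adjusted p under 0.05; mixtures used mclust 6.1.1, fitted to probes measured in 80% of segregants or more, and called where the BIC gain exceeded 10 and the smaller component held 20% or more. Correlations used permutation tests adjusted over the 36 pairs, or over the 18 relations of SAM3, in Python 3.11.15 with numpy 2.4.6. The steps were tested on simulated data.

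Replicate numbers occur in both parents. Deviations of BY and RM samples with the same number correlated at 0.51, 0.13, 0.34, 0.15, 0.30 and 0.17 over tested probes. The same number gave the highest r for replicates 1, 3 and 5, but not for 2, 4 and 6. Whether the numbers pair the samples is therefore unsettled. The reported fit is without pairing, and a fit with the replicate number as a block was run beside it. Depth was the number of probes measured per array, and the number of arrays limits the precision.

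The genes, the lists of other sulfur genes and the tests were chosen with earlier results of these data known. Genes named are the 10, the strain markers, all regulators, and up to 3 called genes in each direction per list by adjusted p. The 3 genes with the highest r per gene are named as well. Genes ranked next for SAM3, the 7 other genes of sulfate uptake and reduction, and sulfur genes named for a high, low or missing r were chosen after their values were seen. A midpoint fit with separate segregant and parental variances (limma's squeezeVar, Satterthwaite degrees of freedom) was added after seeing the data. Alternatives changed the filter, the use of 1 array, the dye, the centring, the normalization, the fit and the replicates. Promoter sequences and motifs were not analysed here.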

Additional observations from a re-analysis of the deposited data

How the results depend on the processing

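Of 659 recomputed values over 5 comparisons, 596 kept their direction and their side of the threshold, or stayed within 1.5 times the reported count, and 0 called values changed sign. The number of the 10 genes called between RM and BY was 3 in the reported fit, 6 with at least 3 values in each parent, 6 with a value on either array, 6 with a value on either array without BY replicates 1 and 2 (an alternative chosen after seeing the data), and 0 with all 3 groups in the fit. In those 4 fits the probes called were 2356, 2639, 3265 and 474, of which 1406, 1529, 1704 and 305 were higher in RM. The first 3 test more probes, and the last takes its spread from the segregants as well. Leaving out 1 replicate at a time gave 3 called genes throughout and 1377 to 1545 called probes, with MET22 between 0.85 and 0.91, MET6 between 0.42 and 0.47 and MET16 between 0.27 and 0.34. With the replicate number as a paired block 1566 probes were called, MET22 differed by 0.86 (limma, adjusted p = 1.65e-05), and no call among the 10 genes changed. At the midpoint 41 probes were called higher and 17 lower as reported. These counts were 71 and 31 with a value on either array, 64 and 43 after quantile normalization, 26 and 6 without BY replicates 1 and 2, 60 and 40 with all 12 RM pairs as replicates, 41 and 3 on arrays with own RNA in Cy5, and 54 and 8 with arrays centred on the median. With 1 replicate left out they ran from 29 to 39 higher and from 8 to 13 lower. In all of these 0 of the 10 genes were called at the midpoint, and the cause was not tested. With a separate spread for segregants and parents (chosen after seeing the data) 351 probes were called higher and 402 lower, and without BY replicates 1 and 2 as well 479 and 628, with 4 genes called in each. For variability, 2034 probes were called with an F ratio of variances, against 1100, and 768 to 1171 with 1 replicate left out, with all 5 tested genes called each time. With 2 Gaussians of unequal variance 270 probes and 4 of the 10 genes (SAM3, MET16, MET22 and MET10) were called as having 2 modes. All 36 correlations kept their sign and call under the 6 alternatives. The number of BY arrays that measured a probe limited the parental tests of MET3, MET14, MET5, MET10 and MET2.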

Other observations

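The gene with the most negative Pearson r over segregants was taken for each of the 10 genes, among named genes with a value in at least 90 segregants, as a description with no test and over shared segregants and arrays. It was GAS3, of a family of cell wall glucan-modifying proteins, for MET16 (−0.74) and MET22 (−0.70). It was SLY1, which acts in vesicle fusion between endoplasmic reticulum and Golgi, for MET5 (−0.73), and VPS1, a dynamin-like GTPase, for MET14 (−0.63). ERP2, of the p24 family that sorts cargo into vesicles, was the most negative for MET10 (−0.68), and CPT1, a cholinephosphotransferase of phospholipid synthesis, for MET3 (−0.59). RTT102, a subunit of chromatin remodelling complexes, was so for MET17 (−0.58), SAH1 for MET2 (−0.63), FPT1 for MET6 (−0.56) and YIR042C for SAM3 (−0.39).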
